A study of Mus musculus with 28 samples.

Results

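The 6 genes described here make, carry, take up and respond to retinoic acid, the active form of vitamin A: Aldh1a1, Aldh1a7, Dhrs3, Stra6, Crabp2 and Rarb. They were chosen by symbol, with earlier results of these data known. All 6 were among the 13128 named genes of the deposited expression table and passed the filter on low values. Aldh1a7 passed it through corticosterone libraries alone and Crabp2 through vehicle libraries alone, so passing is tied to a group difference in both. The cells were DC2, an immortalized mouse epithelial line derived from the distal caput epididymis, grown on collagen type 1 in medium with fetal bovine serum. At confluence the cultures received either 500 ng/ml corticosterone, the main glucocorticoid of rodents, in ethanol, or 0.1% ethanol as vehicle, and the medium was replaced on days 3 and 6. The groups were corticosterone day 3 (end of treatment), day 6 (3 days after it) and day 9 (6 days after it), vehicle on the same 3 days, and a day 0 group labelled vehicle that was collected before treatment. Each of the 7 groups had 4 libraries, 28 in all, from mRNA prepared with a stranded kit. All groups come from 1 cell line, and nothing in the labels tells separate cultures from repeat preparations, so p-values measure only the spread between these libraries, which may be technical. Values are in log2 CPM, a library-size scaled count, and the number of reads behind them is unknown. A gene is written to have risen or fallen where limma's test gave a Benjamini-Hochberg adjusted p under 0.05 over all 13128 genes.

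Retinol enters cells from its carrier in blood through the receptor encoded by Stra6. It is oxidized to retinaldehyde, which Dhrs3 turns back into retinol and which retinaldehyde dehydrogenases such as Aldh1a1 oxidize irreversibly to retinoic acid. Aldh1a7 is a rodent paralog of Aldh1a1 for which little activity on retinaldehyde is known in mouse. Crabp2 carries retinoic acid to nuclear receptors, of which Rarb is one that retinoic acid itself induces, as it also induces Dhrs3 and Stra6. In the epididymis, vitamin A is known to be needed to keep the epithelium in its differentiated form.

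Aldh1a1 and Aldh1a7 lie next to each other on chromosome 19 in the RefSeq annotation of GRCm38.p6. Aldh1a1 spans 20492583 to 20643463 on the plus strand and Aldh1a7 spans 20692953 to 20727556 on the minus strand, with 49489 bases between them. Windows from 250 bases before to 50 bases after annotated start sites, taken from RefSeq, were given for 5 of the 6 members. The windows below belong to Aldh1a1 (chr19:20601718-20602017, plus strand) and Aldh1a7 (chr19:20727507-20727806, minus strand), and are shown because these neighbours had the closest profiles of any member pair. Capitals mark a run of 65 bases that is identical in both and begins at the same distance, position -94 from the start site, in each.
Aldh1a1: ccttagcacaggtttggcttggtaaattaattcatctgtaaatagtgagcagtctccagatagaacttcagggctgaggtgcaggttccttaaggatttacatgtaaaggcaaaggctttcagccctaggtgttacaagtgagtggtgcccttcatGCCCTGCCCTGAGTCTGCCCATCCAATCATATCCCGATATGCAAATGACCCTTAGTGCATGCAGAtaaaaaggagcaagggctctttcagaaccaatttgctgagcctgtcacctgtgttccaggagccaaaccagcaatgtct
Aldh1a7: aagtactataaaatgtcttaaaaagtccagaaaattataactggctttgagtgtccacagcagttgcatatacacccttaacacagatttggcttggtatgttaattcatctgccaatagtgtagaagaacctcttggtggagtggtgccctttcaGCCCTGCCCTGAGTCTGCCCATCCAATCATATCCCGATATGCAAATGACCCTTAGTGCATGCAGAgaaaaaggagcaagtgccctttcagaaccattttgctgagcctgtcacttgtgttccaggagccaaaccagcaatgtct

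Aligned end to end, these windows matched at 233 of 322 columns, or 72.4%. The other annotated Aldh1a1 start had 53.9% identity to the Aldh1a7 window, with a longest identical run of 8 bases. Within the shared run both windows held CCAAT at position -72 and ATGCAAAT at position -56. Searched on both strands, CCAAT occurred in 37.4% and ATGCAAAT in 1.74% of all 32851 RefSeq mouse windows of the same length.

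The Rarb window (chr14:16575427-16575726, minus strand) is shown because it holds the textbook retinoic acid response element of this gene. Capitals mark a direct repeat of receptor core sites spaced by 5 bases, whose first base is at position -53.
Rarb: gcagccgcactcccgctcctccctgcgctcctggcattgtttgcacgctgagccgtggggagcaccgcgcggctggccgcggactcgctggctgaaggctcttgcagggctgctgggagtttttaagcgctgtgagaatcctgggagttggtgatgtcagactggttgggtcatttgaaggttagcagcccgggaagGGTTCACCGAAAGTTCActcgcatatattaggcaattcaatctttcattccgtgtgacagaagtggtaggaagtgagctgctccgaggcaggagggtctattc

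The search used the core site AGGTCA with its variant GGGTCA, together with AGTTCA as well as GGTTCA, which form the Rarb repeat, in any pair and on both strands. A direct repeat spaced by 5 occurred in 0.0974% of all windows, and among the 11 windows of the members only in this one. Repeats spaced by 1 (0.222% of all windows) or 2 bases (0.268%) were in none of the 11. The glucocorticoid receptor palindrome, AGAACA followed after 3 bases by its reverse complement TGTTCT, was in 3 of the 32851 windows (0.00913%) and in none of the 11. AGAACA alone, which overlaps that palindrome and was found in 19.0% of all windows, occurred in 1 Dhrs3 window and 2 Stra6 windows. These are matches of letters in short windows, and binding was not measured.

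Corticosterone day 3 replicate 4 stood apart, with a root mean square log2 difference of 0.52 from the other 3 libraries of its group, against 0.249 to 0.366 in the other 27 libraries. Without it the day 3 log2 fold changes were 4.33 (Aldh1a1), 6.86 (Aldh1a7), 1.67 (Dhrs3), -0.37 (Stra6), -1.65 (Crabp2) and 0.72 (Rarb), and Stra6 alone passed where with all libraries it had not.

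Corticosterone moved the 6 members in different directions. Because the members were chosen with earlier results known, the shares of all genes below give a setting and are no test of the list. At day 3, 4 rose (Aldh1a1, Aldh1a7, Dhrs3 and Rarb), 1 fell (Crabp2) and 1 did not pass the test (Stra6), where 49.0% of all genes were called, 23.3% higher and 25.6% lower. At day 6, 4 rose and 2 fell, with 47.2% of all genes called, 22.9% higher and 24.3% lower, and at day 9, 4 rose, 1 fell and 1 did not pass, with 28.5% of all genes called, 14.1% higher and 14.4% lower. The 4 treated libraries did not overlap the 4 vehicle libraries in 5 of the 6 members at day 3, 6 at day 6 and 4 at day 9, where this held for 38.5%, 48.3% and 32.9% of all genes. The median log2 fold change of the members was 1.19 at day 3, 1.02 at day 6 and 0.40 at day 9, and that of all genes was -0.0091, -0.00157 and 0.0029. Regardless of sign, the median size over all genes was 0.227, 0.218 and 0.148 log2 units, so calls of small changes were common in this table.

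**Figure D1:**
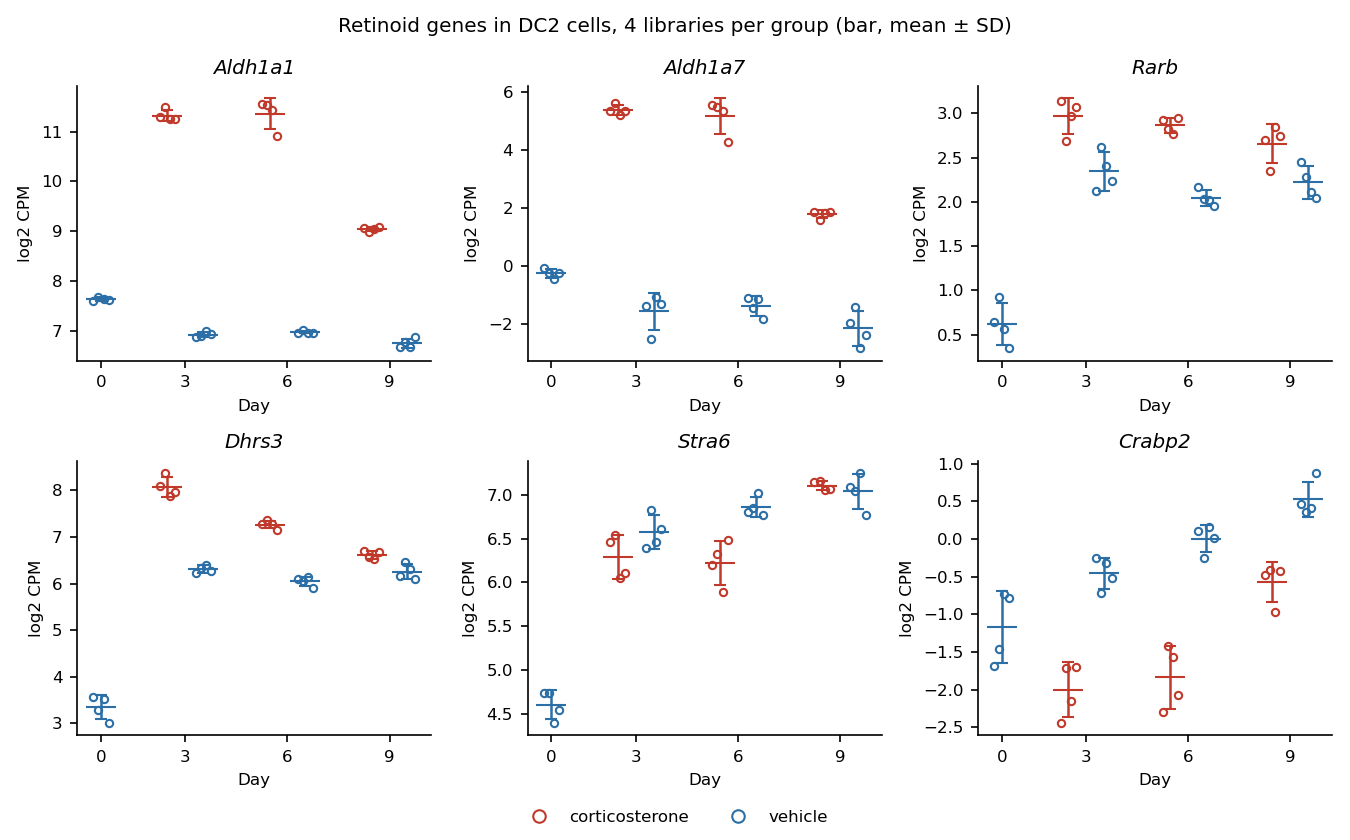
Level (log2 CPM) of each gene in every library against day, with corticosterone in red left of vehicle in blue, and bars giving mean ± SD of 4 libraries. Aldh1a1 and Aldh1a7 are far above vehicle on days 3 and 6 and closer to it on day 9, whereas Crabp2 is below vehicle on all 3 days.

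Aldh1a1, the enzyme that makes retinoic acid from retinaldehyde, had the highest level per length of the 6, and rose about 20.9-fold at day 3. On day 3 its level was 11.29, 11.49, 11.24 and 11.26 log2 CPM in corticosterone replicates 1, 4, 5 and 6, against 6.88, 6.91, 7.0 and 6.95 in vehicle replicates 3 to 6. Every treated library was more than 4 log2 units above every vehicle library. The log2 fold change was 4.39 ± 0.09 (SE, adjusted p = 8.05e-23). At day 6, 3 days after the hormone was withdrawn, the level was 11.55, 11.53, 11.44 and 10.90 in corticosterone replicates 1, 3, 5 and 6, against 6.97, 7.02, 6.97 and 6.97 in vehicle. Treated replicate 6 was the lowest of its group, and the groups did not overlap. The log2 fold change at day 6 was 4.37 ± 0.09 (adjusted p = 1.72e-22), and its difference from the day 3 change was -0.01 (95% interval -0.27 to 0.25, adjusted p = 0.97).

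By day 9 the Aldh1a1 level was 9.06, 9.00, 9.06 and 9.09 log2 CPM in corticosterone replicates 3 to 6, against 6.68, 6.79, 6.68 and 6.88 in vehicle. Treated libraries lay close together, between the treated level of day 6 and the vehicle level. The fold change fell to 4.91-fold (log2 2.29 ± 0.09, adjusted p = 1.41e-15), which was smaller than at day 6 by 2.08 ± 0.13 on the log2 scale (difference -2.08, adjusted p = 5.15e-12).

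Aldh1a7, its neighbour, followed the same course from a much lower level. Day 3 values were 5.34, 5.62, 5.22 and 5.35 log2 CPM in corticosterone replicates 1, 4, 5 and 6, against -1.37, -2.5, -1.07 and -1.30 in vehicle replicates 3 to 6. Day 6 values were 5.56, 5.49, 5.36 and 4.27 in corticosterone replicates 1, 3, 5 and 6, against -1.09, -1.46, -1.15 and -1.83 in vehicle. Day 9 values were 1.88, 1.59, 1.84 and 1.87 in corticosterone replicates 3 to 6, against -1.97, -1.41, -2.83 and -2.36 in vehicle. Treated and vehicle libraries did not overlap on any day, and treated replicate 6 of day 6 was the lowest of its group here as it was for Aldh1a1. The log2 fold changes were 6.94 ± 0.29 at day 3 (adjusted p = 3.03e-16), 6.55 ± 0.29 at day 6 (1.13e-15) and 3.94 ± 0.29 at day 9 (1.14e-10). The day 9 change was smaller than that of day 6 (difference -2.61 ± 0.41, adjusted p = 2.02e-05).

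The vehicle level of Aldh1a7 is under 1 CPM, so its fold change depends on the constant added before taking logs. On the log2(CPM + 5) scale the changes were 3.12, 2.94 and 0.69 at days 3, 6 and 9, all still called. On the log2(CPM + 1) scale they were 4.97, 4.74 and 1.85.

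The gap between the neighbours also differed with treatment. Aldh1a7 minus Aldh1a1 in log2 CPM was -5.94 ± 0.07 in corticosterone and -8.50 ± 0.62 in vehicle libraries at day 3 (SD, n = 4 each), -6.19 ± 0.30 in corticosterone and -8.36 ± 0.35 in vehicle at day 6, and -7.26 ± 0.10 in corticosterone and -8.90 ± 0.59 in vehicle at day 9. Aldh1a7 thus rose by 2.56, 2.17 and 1.64 log2 units more than Aldh1a1 on the deposited scale. Two-sided exact permutation tests gave p = 0.0286 on each day, also after adjustment over the 3 days, which is the smallest p that 4 against 4 libraries allow. The direction turns with the added constant: with log2(CPM + 5) the differences were -1.21, -1.38 and -1.55, and with log2(CPM + 1) that of day 6 was 0.37 (p = 0.0857, exact) and that of day 9 was -0.43. Of the 31-base words in the coding transcripts of Aldh1a1, 11.3% (281 of 2493) also occur in Aldh1a7, and these were all the words it shared with any gene. For Aldh1a7 the share is 13.8% (281 of 2036), so reads from these stretches do not tell the neighbours apart, and how the counts were split between them is uncertain.

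**Figure D2:**
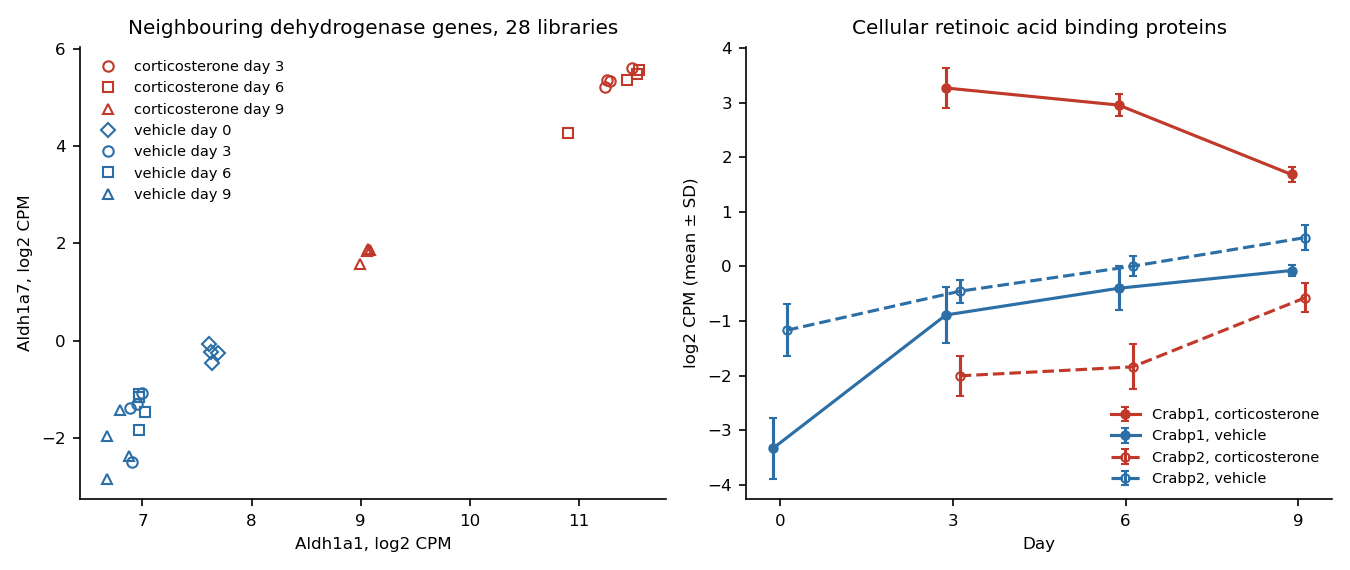
Left, Aldh1a7 against Aldh1a1 level (log2 CPM) in the 28 libraries, with corticosterone in red and vehicle in blue. Right, mean level ± SD (log2 CPM, 4 libraries) of Crabp1 (filled, solid) and Crabp2 (open, dashed) by day, where Crabp1 is higher and Crabp2 lower in corticosterone than in vehicle on all 3 days.

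Dhrs3, which reduces retinaldehyde back to retinol, rose on all 3 days by less each time. At day 3 its level was 8.11, 8.37, 7.88 and 7.96 log2 CPM in corticosterone replicates 1, 4, 5 and 6, against 6.22, 6.34, 6.41 and 6.27 in vehicle replicates 3 to 6. At day 6 it was 7.28, 7.36, 7.27 and 7.16 in corticosterone replicates 1, 3, 5 and 6, against 6.09, 6.05, 6.15 and 5.92 in vehicle. At day 9 it was 6.70, 6.58, 6.53 and 6.67 in corticosterone replicates 3 to 6, against 6.17, 6.46, 6.31 and 6.09 in vehicle. Every treated library exceeded every vehicle library of its day, by a narrow margin at day 9. The log2 fold changes were 1.77 ± 0.10 (3.4-fold, adjusted p = 2.43e-13), 1.22 ± 0.10 (2.32-fold, 2.57e-10) and 0.36 ± 0.10 (1.28-fold, 0.0106). Dhrs3 was the 1 member of 6 whose change already differed between days 3 and 6 (difference -0.55 ± 0.15, adjusted p = 0.018, where 9.11% of all genes were called, 4.21% with a higher and 4.90% with a lower effect), and it shrank again between days 6 and 9 (difference -0.86 ± 0.15, adjusted p = 5.96e-05).

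Stra6, the cell-surface receptor for retinol uptake, was lower only at day 6 by the test. At day 3 its level was 6.47, 6.54, 6.05 and 6.11 log2 CPM in corticosterone replicates 1, 4, 5 and 6, against 6.39, 6.83, 6.46 and 6.61 in vehicle replicates 3 to 6, and the groups overlapped. The log2 fold change of -0.28 ± 0.12 did not pass (95% interval -0.54 to -0.03, adjusted p = 0.0614). It passed without vehicle day 3 replicate 3 (-0.34, adjusted p = 0.0378), without corticosterone replicate 1 (-0.34, 0.0372) or replicate 4 (-0.37, 0.0195), and with weights per library (-0.31, 0.0255). The day 3 result therefore lies at the threshold. At day 6 the level was 6.20, 6.32, 5.89 and 6.49 in corticosterone replicates 1, 3, 5 and 6, against 6.80, 6.85, 7.02 and 6.77 in vehicle. All treated libraries lay below all vehicle libraries, a fall to 0.64-fold (log2 -0.63 ± 0.12, adjusted p = 0.000122). At day 9 it was 7.14, 7.16, 7.05 and 7.06 in corticosterone replicates 3 to 6, against 7.08, 7.05, 7.24 and 6.77 in vehicle, with overlapping groups (log2 fold change 0.07 ± 0.12, 95% interval -0.19 to 0.32, adjusted p = 0.737). The corticosterone effect on Stra6 differed between days 6 and 9 by limma's test (day 9 minus day 6 effect 0.70 ± 0.17, adjusted p = 0.00297).

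Crabp2, the carrier of retinoic acid to nuclear receptors, had the lowest level per length of the 6 in treated cells on all 3 days, and fell on each. Its day 3 level was -2.44, -1.71, -2.16 and -1.70 log2 CPM in corticosterone replicates 1, 4, 5 and 6, against -0.25, -0.71, -0.33 and -0.52 in vehicle replicates 3 to 6. Its day 6 level was -2.29, -1.43, -1.56 and -2.07 in corticosterone replicates 1, 3, 5 and 6, against 0.10, -0.26, 0.16 and 0.02 in vehicle. Its day 9 level was -0.48, -0.42, -0.97 and -0.42 in corticosterone replicates 3 to 6, against 0.47, 0.36, 0.42 and 0.87 in vehicle. No treated library reached a vehicle library of its day. The log2 fold changes were -1.55 ± 0.25 (adjusted p = 1.15e-05), -1.84 ± 0.25 (8.07e-07) and -1.10 ± 0.25 (0.00154). All these levels are near or below 1 CPM, and on the log2(CPM + 1) scale the changes, still called, were -0.47, -0.64 and -0.55. The day 9 change was not shown to differ from that of day 6 (difference 0.74 ± 0.35, 95% interval 0.01 to 1.47, adjusted p = 0.118), but passed with weights per library (0.85, adjusted p = 0.039).

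Its paralog Crabp1, a cytosolic retinoic acid binding protein that is not one of the 6, moved the other way. Crabp1 averaged 3.27 ± 0.37 log2 CPM in corticosterone and -0.89 ± 0.51 in vehicle libraries at day 3 (SD, n = 4 each), 2.96 ± 0.20 in corticosterone and -0.40 ± 0.40 in vehicle at day 6, and 1.68 ± 0.13 in corticosterone and -0.07 ± 0.10 in vehicle at day 9. The groups did not overlap on any day. Crabp1 passed the filter through corticosterone libraries, so passing is tied to a group difference. Its vehicle libraries were all below 0 log2 CPM on days 0, 3 and 6, with a median of -0.08 at day 9. The log2 fold changes were 4.16 ± 0.25 (adjusted p = 4.4e-13), 3.35 ± 0.25 (2.29e-11) and 1.76 ± 0.25 (7.51e-06), and 2.78, 2.31 and 1.11 on the log2(CPM + 1) scale, all called.

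Rarb, the nuclear receptor for retinoic acid, rose modestly. At day 3 it had 3.14, 2.69, 2.97 and 3.07 log2 CPM in corticosterone replicates 1, 4, 5 and 6, against 2.12, 2.62, 2.40 and 2.24 in vehicle replicates 3 to 6. At day 6 it had 2.92, 2.83, 2.77 and 2.95 in corticosterone replicates 1, 3, 5 and 6, against 2.17, 2.03, 2.02 and 1.96 in vehicle. At day 9 it had 2.70, 2.35, 2.85 and 2.74 in corticosterone replicates 3 to 6, against 2.45, 2.28, 2.11 and 2.04 in vehicle. The groups were apart at days 3 and 6 and overlapped at day 9. The log2 fold changes were 0.62 ± 0.13 (1.54-fold, adjusted p = 0.000308), 0.82 ± 0.13 (1.77-fold, 9.22e-06) and 0.44 ± 0.13 (1.36-fold, 0.013). Without corticosterone day 9 replicate 5 the day 9 change was 0.38 and no longer passed (adjusted p = 0.0516). On the log2(CPM + 5) scale the 3 changes were 0.35, 0.43 and 0.23, all called. The day 9 change was not shown to differ from that of day 6 (difference -0.38 ± 0.19, 95% interval -0.76 to 0.00, adjusted p = 0.126), but passed with weights per library (-0.47, adjusted p = 0.0286).

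**Figure D3:**
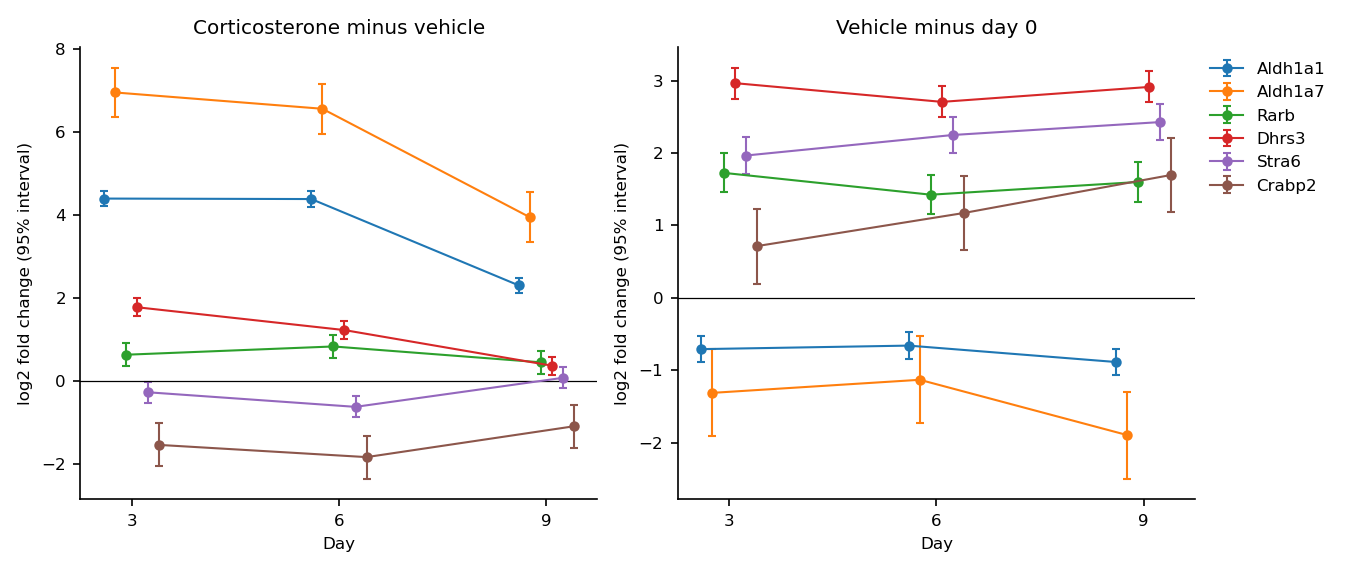
Left, log2 fold change of corticosterone against vehicle for each gene at days 3, 6 and 9. Right, log2 fold change of vehicle at those days against day 0. Bars are 95% intervals and lines join the days of a gene. Aldh1a1, Aldh1a7 and Dhrs3 lie closer to 0 at day 9 than at days 3 and 6 on the left, at 2.29, 3.94 and 0.36, and Dhrs3, Stra6 and Rarb lie above 0 on all days on the right.

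Across the recovery, the change in corticosterone effect between days 6 and 9 was tested directly, where 30.9% of all genes were called, 16.0% with a higher and 14.9% with a lower effect. Of the 6 members, 4 were called: the rises of Aldh1a1, Aldh1a7 and Dhrs3 shrank and the fall of Stra6 was lost. Aldh1a1 and Aldh1a7 were still 4.91-fold and 15.3-fold above vehicle 6 days after treatment on the deposited scale. Each test of this kind shares the day 6 libraries with the test of day 6 against day 3.

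The same genes also differed between day 0 and the later vehicle cultures, which had no added hormone. Day 0 was collected before treatment, so time, ethanol and medium change cannot be told apart in these comparisons. Against day 0, 4 members rose and 2 fell on each day, where 69.2% of all genes were called at day 3 (36.5% higher, 32.7% lower), 70.1% at day 6 (36.4% higher, 33.7% lower) and 70.4% at day 9 (35.9% higher, 34.6% lower). In all 6 the vehicle libraries of each later day did not overlap those of day 0, which held for 66.8%, 66.9% and 66.5% of all genes. The risers were Dhrs3, Stra6, Rarb and Crabp2, and those that fell were Aldh1a1 and Aldh1a7. Mean Dhrs3 level in vehicle was 3.35 ± 0.26 log2 CPM at day 0, 6.31 ± 0.08 at day 3, 6.05 ± 0.10 at day 6 and 6.26 ± 0.16 at day 9 (SD, n = 4 each). Mean Stra6 level was 4.61 ± 0.17, 6.57 ± 0.19, 6.86 ± 0.11 and 7.04 ± 0.20 log2 CPM on the same days. Mean Rarb level was 0.62 ± 0.24, 2.34 ± 0.22, 2.04 ± 0.09 and 2.22 ± 0.18 log2 CPM. In these 3 genes the day 0 libraries lay below all others in the study, treated ones included. The log2 fold changes of vehicle against day 0 at days 3, 6 and 9 were 2.96, 2.71 and 2.91 for Dhrs3, 1.96, 2.25 and 2.43 for Stra6, and 1.73, 1.42 and 1.60 for Rarb, with the largest adjusted p at 3.98e-10.

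Aldh1a1 in vehicle averaged 7.64 ± 0.04 log2 CPM at day 0, 6.93 ± 0.05 at day 3, 6.98 ± 0.03 at day 6 and 6.76 ± 0.10 at day 9, with log2 fold changes against day 0 of -0.71, -0.66 and -0.89 (largest adjusted p = 2.93e-07). Aldh1a7 averaged -0.25 ± 0.15, -1.56 ± 0.64, -1.38 ± 0.34 and -2.14 ± 0.60 log2 CPM on those days. Its falls of 1.31, 1.13 and 1.89 (log2 fold changes -1.31, -1.13 and -1.89) passed on the deposited scale, but on the log2(CPM + 5) scale they were -0.12, -0.12 and -0.16 and did not. Crabp2 averaged -1.17 ± 0.48, -0.45 ± 0.21, 0.00 ± 0.18 and 0.53 ± 0.23 log2 CPM. Its log2 fold changes were 0.71 (adjusted p = 0.0139), 1.17 (0.000187) and 1.70 (1.31e-06). The first 2 did not pass after quantile normalization (0.20 and 0.50), and that of day 3 did not pass without vehicle day 0 replicate 3 (0.54, adjusted p = 0.0679). These comparisons share the vehicle libraries of each day with the treatment comparisons.

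Levels can be set between genes only per length, here CPM divided by the longest coding transcript in kilobases (GENCODE M21), which is a rough scale. At day 3 it gave 1086 ± 88.1 for Aldh1a1 in corticosterone, against 51.9 ± 1.82 in vehicle, and 117 ± 18.1 for Dhrs3 in corticosterone, against 34.0 ± 1.92 in vehicle (CPM per kb, SD, n = 4 each). Stra6 had 25.7 ± 4.41 in corticosterone and 31.2 ± 4.25 in vehicle, and Aldh1a7 had 20.3 ± 2.44 in corticosterone and 0.175 ± 0.0625 in vehicle. Rarb had 2.54 ± 0.335 in corticosterone and 1.65 ± 0.252 in vehicle, and Crabp2 had 0.274 ± 0.0661 in corticosterone and 0.790 ± 0.111 in vehicle. Aldh1a1 was thus the highest of the 6 per length in either group, and Aldh1a7 was the lowest in vehicle and stood between Stra6 and Rarb in corticosterone.

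Ordered by mean level over the 7 groups, Aldh1a1 ran from corticosterone day 6 and day 3, whose ranges overlapped, through corticosterone day 9 and vehicle day 0 to vehicle day 6, day 3 and day 9. Of the neighbours in that order, vehicle days 6 and 3 also overlapped and all others were apart. Aldh1a7 had nearly the same order, with overlap between corticosterone days 3 and 6 and among vehicle days 3, 6 and 9. Dhrs3 ran from corticosterone day 3 through day 6 and day 9, each apart from the next, to vehicle days 3, 9 and 6, which overlapped, and vehicle day 0. Rarb had its 3 corticosterone groups above its vehicle groups, but every neighbouring pair overlapped except vehicle day 6 and day 0. In Stra6 only vehicle day 0 was apart from its neighbour, and Crabp2 ran from vehicle day 9, apart from the rest, to corticosterone day 3, with overlap between all other neighbours.

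Over the 28 libraries, which fall into 7 groups that share most of the variation, each member was set beside all genes with a mean of at least 1 log2 CPM. The gene closest to Aldh1a1 was Aldh1a7 (Pearson r = 0.993), followed by the mitochondrial electron carriers Cyc1 (0.981) and Cycs (0.977). Closest to Aldh1a7 were Aldh1a1 (0.993), Cyc1 (0.972) and Sytl5 (0.970). Closest to Rarb was another member, Dhrs3 (0.956), before Chchd10 (0.953) and Pdk2 (0.952). Dhrs3 was most like Colec12 (0.985), N4bp2l1 (0.983) and Eepd1 (0.979), and Stra6 was most like Fbln7 (0.961), C1s1 (0.960) and Gstt1 (0.959). Crabp2 was most like Relb (0.939), a subunit of NF-kappaB, Inhbb (0.938) and Vcam1 (0.933). Within the 6, Aldh1a1 and Crabp2 ran against each other (r = -0.827), and Aldh1a1 and Stra6 had little relation (r = -0.0916). These are descriptions of 28 libraries that share groups, with no test.

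Of 79 other genes of the pathway, in 6 lists, 50 were measured. In these, 15 rose and 16 fell at day 3 (62.0% called, against 49.0% of all genes), 16 rose and 17 fell at day 6 (66.0%, against 47.2%), and 7 rose and 10 fell at day 9 (34.0%, against 28.5%). Their median log2 fold change was 0.0639, 0.0594 and -0.00493 on the 3 days, with about as many genes higher as lower. Of the retinaldehyde dehydrogenases other than the members, only Aldh8a1 was measured, with log2 fold changes of 0.32 ± 0.19, 0.26 ± 0.19 and -0.44 ± 0.19 that did not pass (adjusted p = 0.166, 0.269 and 0.0823). Aldh1a2, Aldh1a3, Lrat, Rbp4 and the 3 Cyp26 genes were not among the named genes of the deposited expression table.

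**Figure D4:**
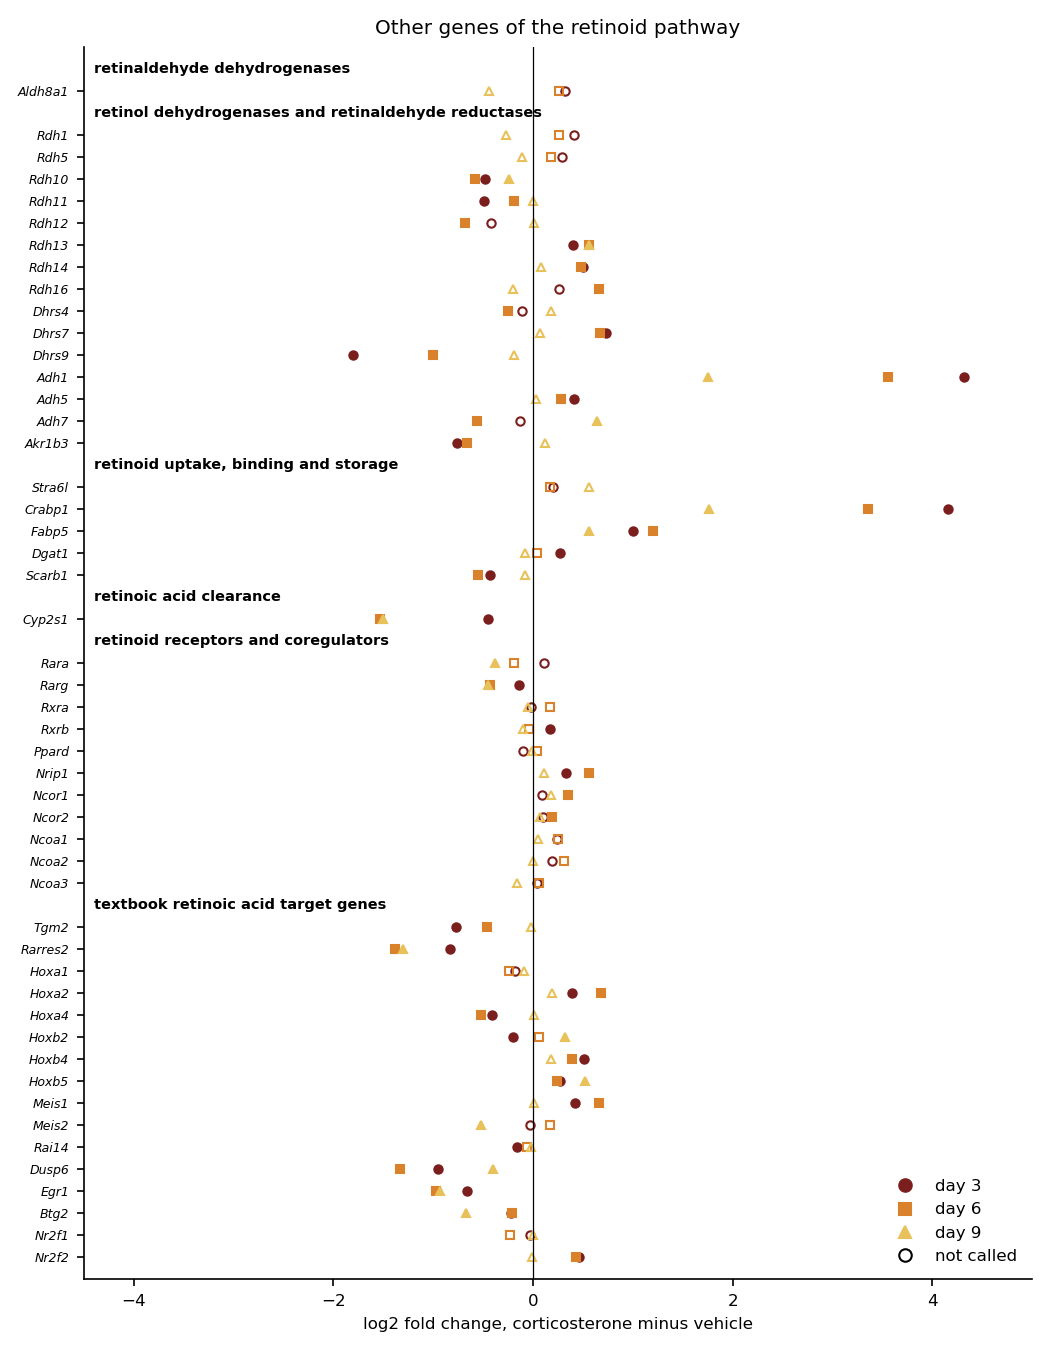
Log2 fold change of corticosterone against vehicle for measured pathway genes that are not among the 6, by list (rows) and day (colour and shape), with filled symbols for genes called at adjusted p under 0.05. Adh1 and Crabp1 lie furthest to the right at day 3 and Dhrs9 furthest to the left.

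Among 15 measured retinol dehydrogenases and retinaldehyde reductases, 5 rose and 4 fell at day 3, 6 rose and 7 fell at day 6, and 3 rose and 1 fell at day 9. Those called were 60.0, 86.7 and 26.7% of the list, against 49.0, 47.2 and 28.5% of all genes. Adh1, an alcohol dehydrogenase that oxidizes retinol, averaged 1.10 ± 0.18 log2 CPM in corticosterone and -3.22 ± 0.76 in vehicle libraries at day 3 (SD, n = 4 each). Its log2 fold changes were 4.32 ± 0.43, 3.56 ± 0.43 and 1.75 ± 0.43 (adjusted p = 4.25e-09, 1.13e-07 and 0.00288). No vehicle library of Adh1 exceeded 0 log2 CPM. It passed the filter through corticosterone libraries alone, so passing is tied to a group difference. The vehicle level is near the lowest value in the table, and on the log2(CPM + 1) scale the changes were 1.49, 1.12 and 0.27, the last not called (adjusted p = 0.0878). Dhrs9, another retinol dehydrogenase, had log2 fold changes of -1.80 ± 0.16 and -1.01 ± 0.16 at days 3 and 6 (adjusted p = 6.24e-10 and 9.26e-06) and -0.19 ± 0.16 at day 9, which did not pass (0.411). Dhrs7 had 0.73 ± 0.08 and 0.67 ± 0.08 at days 3 and 6 (5e-08 and 2.05e-07) and 0.07 ± 0.08 at day 9 (0.557).

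Of 6 measured genes of uptake, binding and storage, 3 rose and 2 fell at day 3, 2 rose and 2 fell at day 6, and 2 rose and 1 fell at day 9. The remaining 1, 2 and 3 genes did not pass on these days, where 49.0, 47.2 and 28.5% of all genes were called. Beside Crabp1, Fabp5, a fatty acid binding protein that can also carry retinoic acid, had log2 fold changes of 1.00 ± 0.09, 1.2 ± 0.09 and 0.57 ± 0.09 (adjusted p = 8.42e-10, 2.46e-11 and 3.38e-05). The single measured gene of retinoic acid clearance, the cytochrome P450 Cyp2s1, fell by 0.45, 1.53 and 1.5 on the log2 scale (log2 fold changes -0.45, -1.53 and -1.5, SE 0.16 each, adjusted p = 0.0244, 1.28e-08 and 9.5e-08).

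Among 11 measured receptors and coregulators, 2 rose and 1 fell at day 3, 3 rose and 1 fell at day 6, and 2 fell at day 9. These calls made up 27.3, 36.4 and 18.2% of the list, against 49.0, 47.2 and 28.5% of all genes. The receptor Rarg had log2 fold changes of -0.14 ± 0.05, -0.43 ± 0.05 and -0.45 ± 0.05 (adjusted p = 0.0155, 2.98e-08 and 7.21e-08), opposite in sign to those of Rarb. The corepressor Nrip1 rose at days 3 and 6 (0.33 ± 0.11 and 0.56 ± 0.11, adjusted p = 0.0162 and 0.000125), with 0.11 ± 0.11 at day 9 (0.515). The receptor partner Rxrb passed at day 3 (0.17 ± 0.07, adjusted p = 0.0408) and had -0.04 and -0.10 at days 6 and 9 (0.684 and 0.290).

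Of 16 measured textbook targets of retinoic acid, 5 rose and 8 fell at day 3, 5 rose and 6 fell at day 6, and 2 rose and 5 fell at day 9. The share called was 81.2, 68.8 and 43.8%, and over all genes it was 49.0, 47.2 and 28.5%. Their median log2 fold changes were -0.17, -0.13 and -0.01. Rarres2, which encodes chemerin, fell on the 3 days, with -0.83 ± 0.29, -1.39 ± 0.29 and -1.30 ± 0.29 (adjusted p = 0.0183, 0.000235 and 0.00111). Dusp6, a phosphatase of ERK kinases, had -0.95 ± 0.14, -1.33 ± 0.14 and -0.40 ± 0.14 (2.12e-06, 7.35e-09 and 0.0283). Egr1, an immediate early transcription factor, had -0.67 ± 0.10, -0.97 ± 0.10 and -0.93 ± 0.10 (7.64e-06, 1.62e-08 and 1.67e-07). Hoxb4, a homeobox gene, rose at days 3 and 6 (0.51 ± 0.07 and 0.39 ± 0.07, adjusted p = 2.26e-06 and 9.93e-05), with 0.18 ± 0.07 at day 9 (0.077).

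The label was checked with marker lists. Of 8 epithelial markers, 7 were measured, with a summed level of 62.0 to 83.5 CPM in corticosterone and 75.5 to 77.5 CPM in vehicle libraries at day 3. Cldn4 and Krt18 had the highest vehicle means at day 3 (5.42 and 4.42 log2 CPM). At day 3 Krt7 rose (log2 fold change 1.26), Cdh1 and Krt18 fell (-1.24 and -0.23), and the other measured markers did not pass. The sums of the groups overlapped at days 6 and 9 as well. At day 6 Krt7, Krt8 and Cldn4 rose (2.09, 1.12 and 0.55), and Cdh1 and Krt18 fell (-1.63 and -0.74). At day 9 Epcam, Krt7, Krt8 and Cldn4 rose (2.69, 1.96, 1.62 and 0.46), and Cdh1 fell (-0.45). Of 17 caput principal cell markers, 5 were measured (225 to 302 CPM in corticosterone and 271 to 288 CPM in vehicle at day 3), among them Pax2 and Pax8. The 12 others, including the secretory genes Lcn5 and Crisp1, were not among the named genes of the deposited expression table. Of 7 fibroblast markers, 5 were measured, with a summed level of 113 to 134 CPM in corticosterone and 60.9 to 65.4 CPM in vehicle at day 3, where Dcn and Pdgfra rose (log2 fold changes 2.76 and 1.44) and Col1a1, Col1a2 and Pdgfrb fell (-1.38, -1.25 and -0.60). At days 6 and 9 the sums overlapped, with 68.1 to 75.4 and 82.0 to 85.8 CPM in corticosterone, against 69.5 to 73.9 and 79.5 to 93.5 CPM in vehicle. Of 6 macrophage or leukocyte markers, 2 (Cd68 and Csf1r) were measured, with 7.88 to 11.3 CPM in corticosterone and 28.4 to 29.6 CPM in vehicle at day 3. Of 4 basal cell markers, Cldn1 alone was measured, with 48.9 to 53.9 CPM in corticosterone and 12.4 to 14.98 CPM in vehicle. Of 4 endothelial markers, 2 were measured, and their sum at day 3 was 7.15 to 9.71 CPM in corticosterone and 1.43 to 2.60 CPM in vehicle. Of these, Kdr rose (log2 fold change 5.32), whereas Pecam1 had 0.28 and did not pass (adjusted p = 0.506). The 1 measured of 4 smooth muscle markers had at most 2.55 CPM in any library, and no clear cell (of 3) or germ cell marker (of 4) was measured. At day 6 the macrophage or leukocyte sum was 10.3 to 13.9 CPM in corticosterone and 49.1 to 57.6 CPM in vehicle, and at day 9 it was 45.7 to 50.8 CPM in corticosterone and 87.55 to 108.5 CPM in vehicle. That sum was nearly all Cd68, whose log2 fold change at day 9 was -1.07, while Csf1r had 0.75 (adjusted p = 0.0546). All groups come from the DC2 line, and whether cells of these other types were present was not tested. In bulk RNA, fewer cells of a type and less RNA per cell cannot be told apart.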

How the data were processed

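Poly(A) mRNA libraries, 28 in all, were made from DC2 cells with a stranded kit from 500 ng of RNA, per the labels' protocols. The authors deposited normalized log2 CPM, as the file's name states. The tools listed in the submitters' processing notes are kallisto (no version), edgeR 3.40.1, limma 3.54.0, with the build mm10 and no role or order. The annotation, added count and normalization method are not given in the sources used here. CPM taken back from the log summed to 949069 to 1059648 per library, counts were not used, and sequencing depth is unknown, so no counting interval is given. No library was a copy of another, the closest pair differing by 0.282 log2 units (root mean square over genes). An entry without a symbol (0.0267 to 0.0698% of CPM) was left out.

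A gene had to exceed 0 log2 CPM in 4 or more libraries, and all 13128 did. Aldh1a7 met this only in corticosterone libraries, and Crabp2 only in vehicle libraries of days 6 and 9. Outside the members, Adh1 met it only in corticosterone libraries, and Crabp1 would not have met it on vehicle libraries alone. With limma 3.58.1 (R 4.3.3), a model with a mean for each of the 7 groups used all 28 libraries together, leaving 21 residual degrees of freedom. Empirical Bayes moderation used an intensity trend, and p was adjusted by Benjamini-Hochberg over all genes of a comparison, with a threshold of 0.05. Exact permutation tests used SciPy 1.17.1, and promoter windows were aligned with Biopython 1.88 (match 1, mismatch -1, gap opening -2, gap extension -0.5). On data simulated for corticosterone against vehicle at day 3 with 13128 genes, 38, 76, 88 and 100% of 50 genes each were recovered where the planted log2 change was 0.25, 0.5, 1 and 2, and 7 of 12928 unchanged genes were called. The simulated noise was normal and nearly all genes were unchanged, whereas 49.0% of genes were called in the real day 3 comparison. These rates therefore do not carry over directly.

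The members and lists were chosen with earlier results of these data known. The text names all 6 members, and for each member the 3 genes with the highest r. Of each pathway list it names the 3 measured genes with the smallest p at day 3. It also names any listed gene called with a log2 change of at least 1 on any day. The genes in the lists of markers, or absent from the expression table, are named as examples. Values of 1 gene that this rule names are not reported here, though the counts over its list include it. Correlations of deviations from group means exceeded 0.1 in all 3 same-numbered pairs of corticosterone and vehicle at day 6 (0.11 to 0.156), and in no other comparison in all pairs. Alternatives were a stricter filter (log2 CPM above 2), no filter, quantile normalization, median centring, log2(CPM + 1), log2(CPM + 5), no intensity trend, a fit to the compared groups alone, library weights, a replicate block and leaving out each library; log2(CPM + 1) for the pathway genes was chosen after seeing the data.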

Additional observations from a re-analysis of the deposited data

Results flagged for a closer look

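In 4 of 42 groups of 4 libraries (6 genes in 7 groups) 1 library lay far from the other 3 by Dixon's test at the 95% level, where chance gives about 1 in 20. These were Aldh1a1 in vehicle day 6 replicate 4 (7.02 log2 CPM, the highest of a group that spans little), Aldh1a7 in corticosterone day 6 replicate 6 (4.27, the lowest), Aldh1a7 in corticosterone day 9 replicate 4 (1.59, the lowest) and Crabp2 in corticosterone day 9 replicate 5 (-0.97, the lowest). Without any of these libraries no call of that gene in the comparison of its day was lost.

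The corticosterone effect differed between days, by the test of the difference itself in the limma fit, in 5 cases. Between days 3 and 6 it was Dhrs3 (day 6 minus day 3 effect, -0.55 log2 units), where 9.11% of all genes were called. Between days 6 and 9 (day 9 minus day 6 effect) it was Aldh1a1 (-2.08), Aldh1a7 (-2.61), Dhrs3 (-0.86) and Stra6 (0.70), where 30.9% of all genes were called.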

How the results depend on the processing

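Of 1190 values under alternatives, 1139 kept their direction and side of the threshold (counts of genes, within 1.5 times), and 51 did not, 34 of them with a library left out. Of these 34, 8 on each of days 3, 6 and 9 were the Aldh1a7 minus Aldh1a1 test. It cannot pass with 3 against 4 libraries, so those changes were fixed in advance. Quantile normalization gave 0.20 (day 3) and 0.50 (day 6) for Crabp2 in vehicle against day 0, and log2(CPM + 5) gave -0.12, -0.12 and -0.16 for Aldh1a7 (days 3, 6 and 9), none called. Log2(CPM + 5) also turned the day 9 minus day 6 effect of Crabp2 (-0.000117) and the Aldh1a7 minus Aldh1a1 difference (-1.21, -1.38 and -1.55), which log2(CPM + 1) put at 0.37 at day 6 and -0.43 at day 9. Library weights gave -0.31 for Stra6 at day 3, 0.11 for the day 6 minus day 3 effect of Aldh1a1, and -0.47 (Rarb) and 0.85 (Crabp2) for the day 9 minus day 6 effect. With only the groups compared, 766 genes, against 1196, were called for the day 6 minus day 3 effect, where fewer libraries enter the fit; the cause of the others was not tested.

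Leaving out 1 library gave -0.37 to -0.20 for Stra6 at day 3, -0.0224 to 0.14 for Stra6 at day 9, 0.38 to 0.54 for Rarb at day 9, 0.54 to 0.86 for Crabp2 in vehicle day 3 against day 0, and -0.0774 to 0.14 for the day 6 minus day 3 effect of Aldh1a1. The Aldh1a7 minus Aldh1a1 difference kept its direction at 2.25 to 2.70, 2.03 to 2.32 and 1.44 to 1.87 (days 3, 6 and 9), with exact p = 0.0571, the smallest that 3 against 4 libraries allow.

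A replicate block changed none of 56 calls and counts; it called 6325 genes, against 6429, at day 3, 5993, against 6194, at day 6 and 3827, against 3736, at day 9. Over 22 same-numbered pairs, correlations of deviations ran from -0.0308 to 0.167, and 8 libraries correlated best with their own number. Levels near or below 1 CPM (Crabp2, and Aldh1a7 in vehicle) limit the precision of those fold changes, and without counts the depth behind them is unknown.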

Other observations

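In vehicle cultures the wider retinoid pathway was also compared with day 0, which was collected before treatment, so time and ethanol cannot be told apart. Of 50 measured genes, 27 rose and 6 fell at day 3 against day 0, 29 rose and 8 fell at day 6, and 26 rose and 7 fell at day 9, where 36.5, 36.4 and 35.9% of all genes rose and 32.7, 33.7 and 34.6% fell. The list itself was not tested. Their median log2 fold change was 0.33, 0.35 and 0.34, and that of all genes was 0.04, 0.03 and 0.02. Rarres2 rose by 2.14, 3.11 and 4.11 log2 units on the 3 days, and rises were also large in Crabp1 (2.44, 2.93 and 3.26) and Cyp2s1 (1.49, 2.26 and 2.71). Levels at day 0 were low, with means of -2.04 log2 CPM for Rarres2 and -3.33 for Crabp1, where the lowest value is -4.154. Crabp1 averaged 0.10 CPM at day 0 and only 0.95 CPM in vehicle at day 9. Such folds depend on the constant added before taking logs, and other constants were not tried for these comparisons. Fabp5 fell (-3.13, -2.69 and -2.39). The vehicle libraries are shared with the comparisons of corticosterone against vehicle.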
